A study of Mus musculus with 6 samples.

Results

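The glutathione transferase genes described here are Gsta1, Gsta2, Gsta3 and Gsta4 of the alpha class, Gstm1, Gstm2 and Gstm3 of the mu class, Gstp1 of the pi class, Gstt1 of the theta class and the membrane-bound Mgst1. Their features were chosen by name: every feature of the deposited table whose platform annotation gave exactly 1 gene symbol, that symbol being one of these 10. This gave 23 of the 44290 features in the table. Of the 23, 14 had a value. The other 9 all belonged to Gsta4, which kept 1 feature with a value, and 38 genes on the array had 9 features without a value in the same way.

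The study measured mRNA in MMH cells, a mouse liver cell line that the labels also call Met murine hepatocytes and mark as ED14. Cells with an expression construct for the homeobox transcription factor Prox1 were set against cells with the vector pCDNA3.1 on each of 6 2-colour arrays, with Prox1 RNA in Cy5 on 3 arrays (called forward arrays here) and in Cy3 on the other 3. What drives Prox1 in the construct, and whether the cells are 1 clone or a pool, is not given in the sources used here. RNA was copied to cDNA and amplified by PCR before labelling.

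Each value is a score: a log-like ratio of both RNAs, scaled to an SD of 1 over the features of its array. A score is therefore not a fold change. Negative scores likely mean a lower level with Prox1. That direction rests on 1 of the 3 Prox1 features, which scored 5.44, 5.22, 5.17 and 6.60 and ranked 4 from the top of 41230 features, while the labels do not state it. The other Prox1 features had scores of both signs near 0. They were 0.55, 0.45, 0.24 and −0.29 in one, and −0.10, 0.14, 0.08 and −0.38 in the other. The values of the 3 arrays whose Prox1 RNA carried Cy3 were the same in every feature, and they were counted as 1 swapped profile beside the 3 forward arrays. No source states whether separate cultures were used, so a p-value covers the spread between these arrays and possibly only technical error. Ratios cannot show whether hepatocyte markers were present at all, and in bulk RNA fewer cells of a type and less RNA per cell cannot be told apart.

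Glutathione transferases join the tripeptide glutathione to electrophilic compounds, which makes drugs, carcinogens and products of lipid peroxidation soluble and ready for export. The soluble enzymes form classes by sequence. Alpha and mu class enzymes are abundant in rodent hepatocytes, and pi class enzymes occur in many epithelia. Mgst1 is an unrelated trimeric enzyme of the endoplasmic reticulum and outer mitochondrial membrane. Many transferase genes respond to the oxidant-sensing factor Nrf2 (Nfe2l2) and to nuclear receptors for foreign compounds.

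Glutathione transferase transcripts were mostly lower in Prox1 cells. Of the 14 features 10 fell and 0 rose, in limma with the dye orientation as a random block and an adjusted p under 0.05. Over all 41230 features 7.66% passed the same test, 4.58% as falls and 3.08% as rises. The falls covered 7 of the 10 genes in every feature they had: all 4 alpha genes, Gstm1 and Gstm3, and Mgst1. Gstm2, Gstp1 and Gstt1 had no feature that passed. The median estimate over the 14 features was −2.31 SD units, against 0.04 over all features, and 5 of the 14 lay among the lowest 412 features, which is 1% of the array. All 4 profiles were below 0 for 11 of the 14 features and for 19.4% of all features. With each orientation reduced to 1 replicate, 0 of the 14 passed in limma (10 had an unadjusted p under 0.05, and the smallest adjusted p was 0.13), as did 0 of all 41230 features. Read against the share of falls over all features under the same setting, 14 of the 14 fell with a dye term in place of the block (19.7%), 12 on the forward arrays alone (24.9%), 11 with neither dye term nor block (11.7%), 10 with columns centred on their median (4.49%) and 7 of the 10 genes with features averaged per gene (5.03%).

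**Figure D1:**
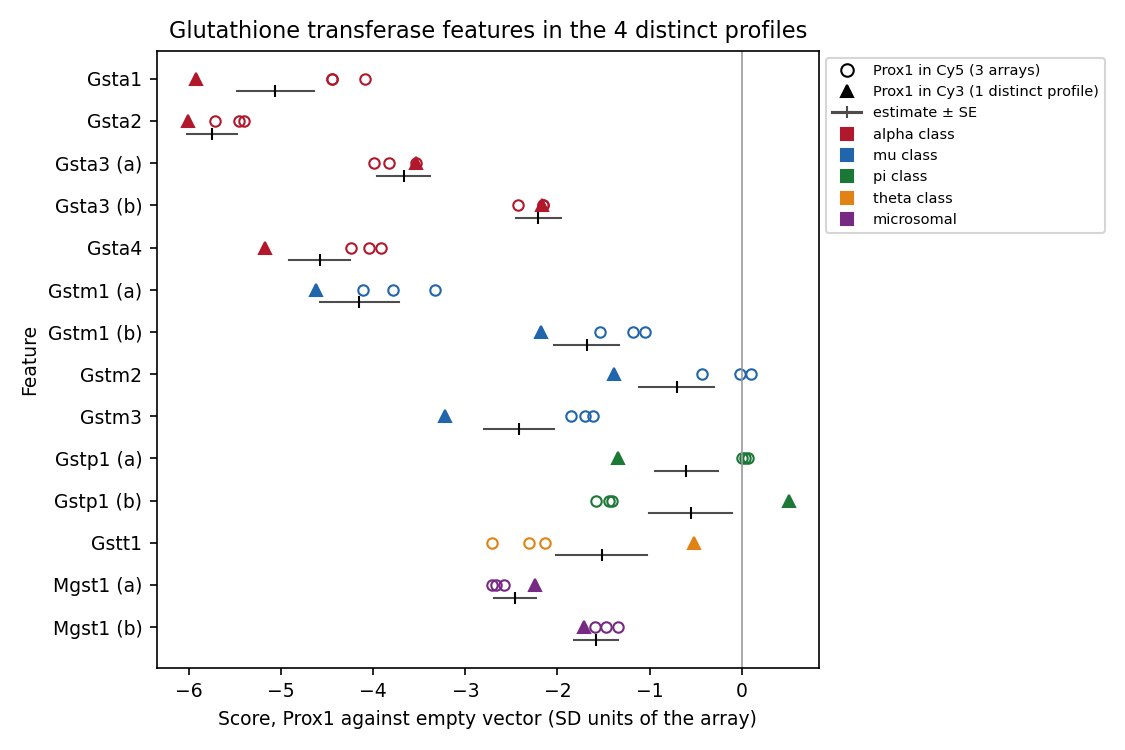
Scores of the 14 glutathione transferase features (vertical axis) in SD units of the array (horizontal axis). Open circles are the 3 arrays with Prox1 in Cy5, triangles the single distinct profile with Prox1 in Cy3, and the bar below each feature is the estimate ± SE of the random block model. Where a gene has 2 features, (a) is the one with the lower estimate. Scores of the alpha class lie between −6.01 and −2.15. Its median estimate is the lowest of the classes, but the lower Gstm1 feature has a lower estimate than either Gsta3 feature. The triangle lies beyond the circles on one side or the other in most features.

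The alpha class had the lowest median of the classes, at −4.58 SD units, and each of its 5 features fell. Gsta2, which conjugates electrophiles and reduces lipid hydroperoxides, scored −5.46, −5.40 and −5.72 on the forward arrays and −6.01 in the swapped profile. All 4 profiles were low and close together. The estimate was −5.75 ± 0.27 SD units (SE, 4 profiles; limma adjusted p = 0.000628), rank 45 from the bottom of 41230 features. Gsta1, its close relative, scored −4.45, −4.45 and −4.09 on the forward arrays and −5.92 in the swapped profile. The swapped profile was lower than each of the others by more than their whole range. Its estimate was −5.07 ± 0.42 (adjusted p = 0.00218). The coding sequences of mouse Gsta1 and Gsta2 are nearly identical, so their features can share transcripts and are uncertain as separate measurements.

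Gsta4 encodes the alpha enzyme best known for conjugating 4-hydroxynonenal, a product of lipid peroxidation. It scored −4.05, −3.92 and −4.24 on the forward arrays and −5.17 in the swapped profile, with an estimate of −4.58 ± 0.33 (adjusted p = 0.00145). As for Gsta1, the swapped profile was the lowest. Gsta3, whose product detoxifies aflatoxin epoxide in mice, was measured by 2 features. The lower feature scored −3.54, −3.82 and −3.99 on the forward arrays and −3.53 in the swapped profile (estimate −3.67 ± 0.29, adjusted p = 0.00189). The other scored −2.15, −2.15 and −2.43, and −2.16 in the swapped profile (estimate −2.21 ± 0.25, adjusted p = 0.00577). For Gsta3 the orientations gave nearly equal scores within each feature, whereas its features differed by 1.46 SD units. A difference of that size or less was found in 91.7% of the 5292 genes with exactly 2 features, whose median difference was 0.38.

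Gsta4, Gsta1 and Gsta2 lie in that order in a cluster on chromosome 9, and Gsta3 lies apart from them on chromosome 1. The promoter windows below run from 250 bases before to 50 after the start site, 5′ to 3′ on the gene's strand (RefSeq, GRCm38.p6). Of the 10 genes 9 had a window in the table, and Gsta4 did not. Gsta1 (chr9:78230419-78230718, plus strand) and Gsta2 (chr9:78347096-78347395, minus strand) are shown because they were the 2 lowest genes and their windows were the most alike. The capitals mark the longest run of bases that both share, 29 bases long. The median of the longest shared run was 9 bases over 53 pairs of windows of different genes.
Gsta1: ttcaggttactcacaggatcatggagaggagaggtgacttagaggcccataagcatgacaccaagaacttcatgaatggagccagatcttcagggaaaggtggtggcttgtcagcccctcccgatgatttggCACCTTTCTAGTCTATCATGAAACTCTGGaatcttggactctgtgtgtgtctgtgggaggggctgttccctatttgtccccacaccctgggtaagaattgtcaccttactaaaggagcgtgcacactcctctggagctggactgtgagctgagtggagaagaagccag
Gsta2: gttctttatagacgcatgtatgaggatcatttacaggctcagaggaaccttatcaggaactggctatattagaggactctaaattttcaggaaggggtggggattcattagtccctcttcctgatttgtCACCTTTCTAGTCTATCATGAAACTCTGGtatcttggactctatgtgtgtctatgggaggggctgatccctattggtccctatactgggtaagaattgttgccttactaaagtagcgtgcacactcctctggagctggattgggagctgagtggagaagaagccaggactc
Neither window held any of the motifs searched. These were TGACNNNGC (core of the antioxidant response element), CAAAGTCCA (a form of the HNF4 element), TGACCT (core of nuclear receptor elements) and TGACTCA (AP-1), each on both strands. The last was added after the sequences had been read.

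The Gsta3 window (chr1:21240335-21240634, plus strand) is shown because it held one of these motifs. The capitals mark the match to TGACNNNGC. It is not the only possible regulatory match there: the window also holds ATTAAC, which is GTTAAT on the other strand. How common GTTAAT is among all windows was not tested.
Gsta3: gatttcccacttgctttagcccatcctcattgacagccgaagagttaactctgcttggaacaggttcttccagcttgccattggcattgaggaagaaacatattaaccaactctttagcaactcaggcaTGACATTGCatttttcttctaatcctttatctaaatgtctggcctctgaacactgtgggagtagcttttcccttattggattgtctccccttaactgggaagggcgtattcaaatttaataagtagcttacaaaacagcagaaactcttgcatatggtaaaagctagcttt
Of all 32851 windows 12.4% held TGACNNNGC, so single matches are common. Among the 11 windows of these genes TGACNNNGC occurred in 2, those of Gsta3 and Mgst1, and TGACCT in 1, that of Gstm1 (16.3% of all windows). CAAAGTCCA occurred in 0 of the 11 and in 0.475% of all windows. The matches are matches of letters and do not show binding.

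The mu class was divided, with 3 of 4 features lower and a median of −2.05. Gstm1, the main mu enzyme of mouse liver, was measured by 2 features. The lower one scored −4.11, −3.33 and −3.79 on the forward arrays and −4.63 in the swapped profile, with an estimate of −4.15 ± 0.43 (adjusted p = 0.00456). The other scored −1.54, −1.18 and −1.05 on the forward arrays and −2.18 in the swapped profile, with an estimate of −1.68 ± 0.35 (adjusted p = 0.0410). Both features fell, and in both the swapped profile was the lowest. They differed by 2.47 SD units, as much as or more than 97.6% of genes with 2 features. The higher Gstm1 feature no longer passed without replicate 1, 2 or 3 (adjusted p = 0.0799, 0.0941 and 0.0738).

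Gstm3, a neighbouring mu gene, scored −1.71, −1.85 and −1.61 on the forward arrays and −3.22 in the swapped profile. The estimate was −2.42 ± 0.38 (adjusted p = 0.0166), and it too did not pass without any one of replicates 1, 2 and 3 (adjusted p = 0.0535, 0.0564 and 0.0522). Gstm2, which lies between Gstm3 and Gstm1 on chromosome 3, scored 0.11, −0.02 and −0.43 on the forward arrays and −1.39 in the swapped profile. Its forward arrays lay around 0 and only the other orientation was clearly negative. The estimate was −0.70 ± 0.41 (adjusted p = 0.457). Mu class coding sequences are also closely related, and the features of Gstm1, Gstm2 and Gstm3 may share transcripts.

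The other mu genes of the cluster are, in chromosomal order, Gstm5, Gstm7 and Gstm6 before Gstm3, and Gstm4 after Gstm1. Gstm5 had an estimate of −0.37 ± 0.24, Gstm6 one of −0.74 ± 0.43 and Gstm4 one of 0.35 ± 0.37, none of which passed (adjusted p = 0.542, 0.467 and 0.799). Gstm7 had 1 feature that fell, at −1.03 ± 0.22 (adjusted p = 0.0447), and another at −0.39 ± 0.27 (adjusted p = 0.565). Within the cluster the falls thus lay at Gstm7, Gstm3 and Gstm1, with Gstm6 and Gstm2 between them and no call there.

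**Figure D2:**
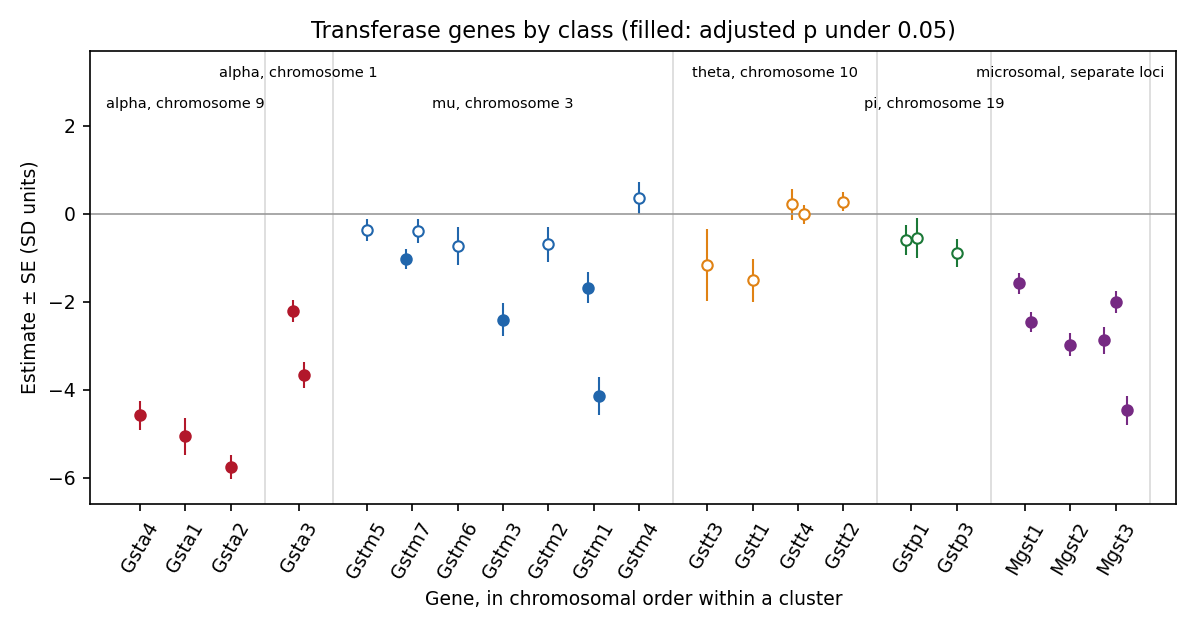
Estimates ± SE of the random block model in SD units (vertical axis) for the alpha, mu, theta and pi genes, Mgst1, Mgst2 and Mgst3. Genes are in chromosomal order within the clusters on chromosomes 9, 3, 10 and 19 (horizontal axis). Gsto1, Gsto2, Gstz1, Gstk1, Gstcd and Hpgds are not drawn. Filled points passed an adjusted p of 0.05. The alpha genes and Mgst1, Mgst2 and Mgst3 passed in each feature, the mu cluster alternated, and no feature of the theta and pi clusters passed.

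Mgst1, the microsomal enzyme that protects membranes from lipid peroxidation, fell in both of its features. The lower one scored −2.58, −2.66 and −2.71 on the forward arrays and −2.24 in the swapped profile, with an estimate of −2.46 ± 0.23 (adjusted p = 0.00319). The other scored −1.34, −1.48 and −1.60 and, in the swapped profile, −1.71, with an estimate of −1.58 ± 0.24 (adjusted p = 0.0148). With Gsta2 and Gsta3, Mgst1 was one of the genes whose orientations lay closest together. The window of its upstream start site (chr6:138140277-138140576, plus strand) held the TGACNNNGC core on the other strand, in capitals below.
Mgst1: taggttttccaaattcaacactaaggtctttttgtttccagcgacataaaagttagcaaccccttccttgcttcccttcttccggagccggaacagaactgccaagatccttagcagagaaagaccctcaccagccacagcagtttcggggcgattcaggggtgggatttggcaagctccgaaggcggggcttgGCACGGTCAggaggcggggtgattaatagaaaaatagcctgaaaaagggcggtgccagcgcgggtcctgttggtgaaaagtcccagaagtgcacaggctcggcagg

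Mgst2 and Mgst3, the other microsomal genes so named, also fell. Mgst2 had an estimate of −2.98 ± 0.26 (adjusted p = 0.00257), and the features of Mgst3 had estimates of −4.47 ± 0.33, −2.88 ± 0.31 and −2.01 ± 0.25 (adjusted p = 0.00147, 0.00512 and 0.00808). Mgst2 and Mgst3 act on lipid hydroperoxides and can form leukotriene C4. Mgst1, Mgst2 and Mgst3 lie on different chromosomes (6, 3 and 1). Alox5ap, Ptges and Ltc4s, counted below with the other transferases, did not pass. Their estimates were −0.75 ± 0.34, −0.32 ± 0.26 and 0.04 ± 0.25 (limma adjusted p = 0.309, 0.685 and 0.997).

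Gstp1, the pi class enzyme, gave no call, and its features disagreed on where the negative score lay. One scored 0.04, 0.0022 and 0.07 on the forward arrays and −1.34 in the swapped profile. The other scored −1.40, −1.43 and −1.58 on the forward arrays and 0.51 in the swapped profile. The difference between the orientations was 1.38 SD units in the first feature and −1.98 in the second (mean of the forward arrays minus the swapped profile), each past the limma test of that difference (adjusted p = 0.00208 and 0.00104). The estimates came out nearly equal, at −0.60 ± 0.34 and −0.55 ± 0.45 (adjusted p = 0.453 and 0.680), although the profiles behind them were opposite. On the forward arrays alone the second feature passed, at −1.47 (limma adjusted p = 5.2e-05), and the first did not, at 0.04 (adjusted p = 0.71). Of all features 24.9% passed as falls in that setting. Mouse Gstp2 is nearly identical to Gstp1 and was not analysed here, so these features may measure both. Gstp3 had an estimate of −0.89 ± 0.32 and did not pass (adjusted p = 0.182).

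The Gstp1 window (chr19:4037863-4038162, minus strand) is shown as that of a gene without a call. The capitals mark TGAGTCA, the AP-1 motif, which was found in no other window of these genes and in 5.2% of all windows.
Gstp1: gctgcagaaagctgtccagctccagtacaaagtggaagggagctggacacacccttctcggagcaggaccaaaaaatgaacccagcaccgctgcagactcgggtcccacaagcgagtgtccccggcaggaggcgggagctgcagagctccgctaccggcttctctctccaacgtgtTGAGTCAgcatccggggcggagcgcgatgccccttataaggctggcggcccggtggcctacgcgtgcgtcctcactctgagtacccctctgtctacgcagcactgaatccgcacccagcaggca

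Gstt1, the theta class enzyme that acts on small halogenated compounds, scored −2.71, −2.14 and −2.31 on the forward arrays and −0.52 in the swapped profile. All profiles were negative, but the swapped score was much nearer to 0, with a difference of −1.86 SD units (adjusted p = 0.00338 for the difference). The estimate of −1.52 ± 0.49 did not pass (adjusted p = 0.142). On the forward arrays alone Gstt1 passed, at −2.38 (limma adjusted p = 4.2e-05), but in that setting 24.9% of all features passed as falls. Its neighbours on chromosome 10 did not pass: Gstt3 had an estimate of −1.17 ± 0.82, Gstt4 had estimates of 0.21 ± 0.35 and −0.02 ± 0.22, and Gstt2 one of 0.27 ± 0.21.

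The orientations differed in 8 of the 14 features, by limma's test of the dye term. Over all features 40.7% passed that test. The swapped profile lay outside the range of the 3 other arrays in 13 of the 14 features, below all of them in 9 and above all of them in 4. The same count was not made over all features, so it does not set these genes apart. The differences that passed were positive for Gsta1, Gsta4, the higher Gstm1 feature, Gstm2, Gstm3 and the first Gstp1 feature, and negative for Gstt1 and the second Gstp1 feature. A dye effect, another scaling and another RNA preparation cannot be told apart here.

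**Figure D3:**
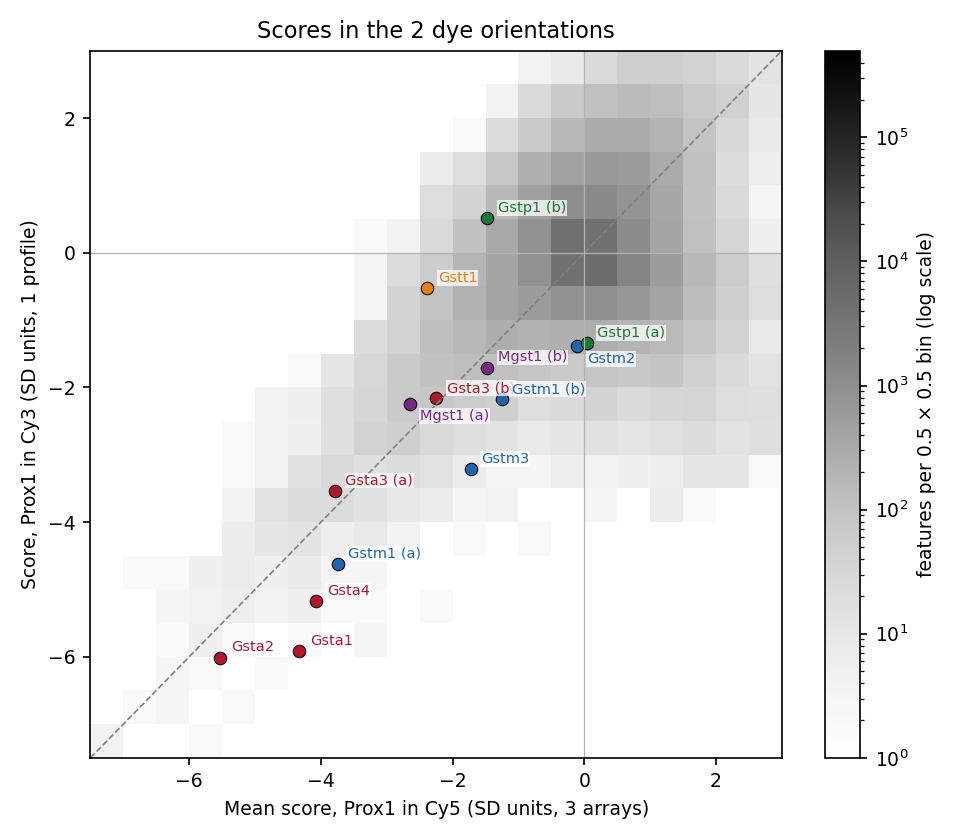
Mean score of the 3 arrays with Prox1 in Cy5 (horizontal axis) against the score with Prox1 in Cy3 (vertical axis), both in SD units. Coloured points are the 14 transferase features, grey squares count all features per bin on a log scale, features beyond the axes are not drawn, and the dashed line marks equal scores. Gsta1, Gsta2, Gsta4 and the lower Gstm1 feature lie farthest to the lower left of the 14, in bins of at most 5 features, and the Gstp1 features lie on opposite sides of the line.

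The genes whose mean profile was most like that of Gsta2, by the root mean square difference over the 4 profiles, were Ddc (0.09 SD units), Rbp2 (0.27), Dnase2a (0.29), Cyp3a13 (0.34) and Cyp2c40 (0.45). Ddc encodes aromatic amino acid decarboxylase, Rbp2 a cellular retinol-binding protein best known from intestine, Dnase2a a lysosomal nuclease, and Cyp3a13 and Cyp2c40 are cytochrome P450 genes. Among the transferases Gsta1 came next at 1.07 (position 33 by likeness) and Gsta4 at 1.33 (position 44), while Gstm2 was farthest at 5.23.

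Other glutathione transferases were on the array too. Of 24 features of 19 such genes 7 were lower (29.2%, against 4.58% of all features) and 0 higher. The median estimate was −0.57 SD units. Their difference from the 10 genes was not tested. The highest estimates among the 24 features were those of Gsto2, at 1.24 ± 0.30 and 0.93 ± 0.28. Neither passed (limma adjusted p = 0.0608 and 0.116). Gsto1, Gstk1 and Gstcd, at −0.34 ± 0.50, −0.03 ± 0.25 and −1.22 ± 1.02, did not pass either. The falls were those of Gstm7, Mgst2 and Mgst3, with Hpgds, the sigma class prostaglandin D synthase (−3.25 ± 0.37, adjusted p = 0.00609), and Gstz1, which acts in tyrosine breakdown (−1.21 ± 0.21, adjusted p = 0.0229).

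Genes that make and recycle glutathione went both ways. Of 26 features of 17 such genes 6 were lower (23.1%, against 4.58% of all features) and 2 higher, where 3.08% of all features rose. The median was −0.80. Gclc, the catalytic subunit of the rate-limiting enzyme of glutathione synthesis, fell by 1.95 ± 0.38 (adjusted p = 0.0330). Gss, the enzyme of the next step, scored −1.97, −1.95 and −2.03 on the forward arrays and −1.93 in the swapped profile and fell by 1.96 ± 0.21 (adjusted p = 0.00495). Of the 3 features of Gsr, which regenerates reduced glutathione, 1 fell by 1.60 ± 0.25 (adjusted p = 0.0162), while neither of the others passed (adjusted p = 0.133 and 0.195, the latter at −0.62 ± 0.23). Slc7a11, the cystine importer, had 4 features, of which 1 fell by 2.01 ± 0.38 (adjusted p = 0.0302), and the others, at −1.71, −1.59 and −0.10, did not pass (adjusted p = 0.813, 0.113 and 0.979). Dpep1, a peptidase of glutathione breakdown, fell by 2.10 ± 0.23 (adjusted p = 0.0050).

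The enzymes that make cysteine from homocysteine moved in opposite directions. Cbs fell by 3.04 ± 0.25 (adjusted p = 0.00220), whereas Cth rose by 1.92 ± 0.30 (adjusted p = 0.0169). The other feature that rose was 1 of the 2 of Ggt5, a gamma-glutamyl transferase (1.45 ± 0.25, adjusted p = 0.0235), while the second stood at 0.01 ± 0.23 (adjusted p = 0.997).

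Of 21 features of glutathione peroxidases and glutaredoxins 2 were lower (9.52%, against 4.58% of all features) and 0 higher, and the median was 0.25. The lower ones were the feature of Gpx4, which reduces lipid hydroperoxides in membranes, at −1.51 ± 0.32 (adjusted p = 0.0439), and 1 of the 3 features of Glrx2, a mitochondrial glutaredoxin, at −2.94 ± 0.50 (adjusted p = 0.0216). The others of Glrx2, at −1.07 ± 0.56 and −0.17 ± 0.32, did not pass (adjusted p = 0.391 and 0.956). Among 18 features of genes that export or process conjugates 3 were lower (16.7%) and 0 higher, and the median was 0.26. They belonged to Abcc3, a basolateral conjugate pump (−4.24 ± 0.35 and −1.61 ± 0.33, adjusted p = 0.00217 and 0.0403), and Abcc2, the canalicular conjugate pump (−1.30 ± 0.21, adjusted p = 0.0199).

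**Figure D4:**
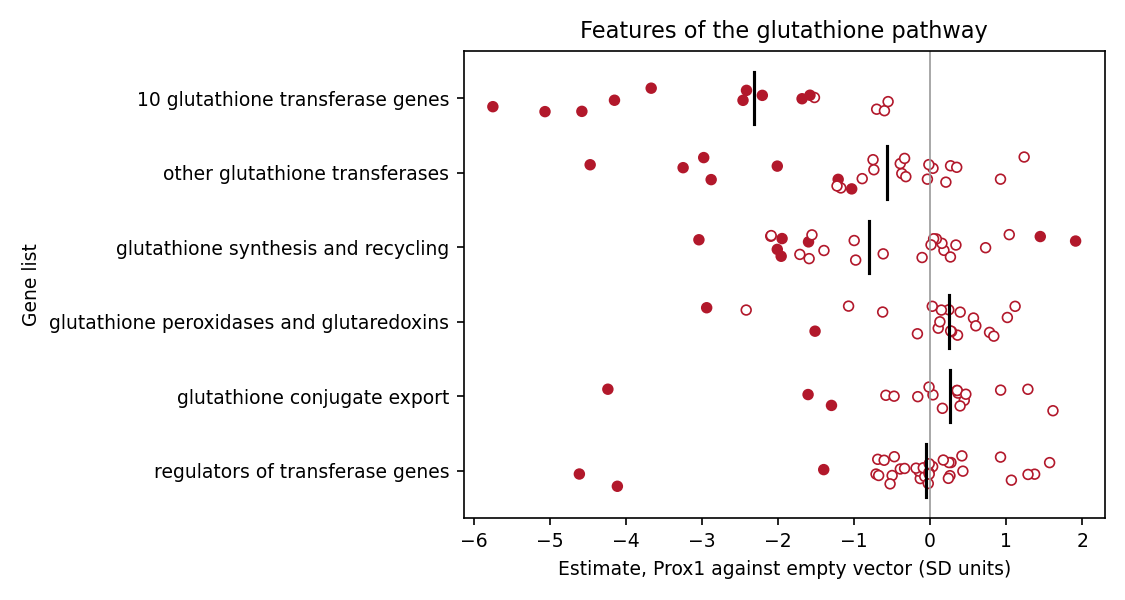
Estimates in SD units (horizontal axis) for the features of the 10 transferase genes and of 5 lists of the glutathione pathway (vertical axis, points spread vertically for legibility). Filled points passed an adjusted p of 0.05 and black bars are medians. The 10 genes have a median of −2.31, the other lists medians between −0.80 and 0.26.

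The 34 features of Keap1 and of transcription factors known to act on transferase genes had a median of −0.05. Of the 34, 3 were lower (8.82%, against 4.58% of all features) and 0 higher. The lower ones were 2 of the 3 features of Hnf4a, at −4.61 ± 0.23 and −4.11 ± 0.25 (adjusted p = 0.000684 and 0.00104), and 1 of Ahr, the dioxin receptor, at −1.40 ± 0.24 (adjusted p = 0.0231). Nfe2l2, which encodes Nrf2, had features at 1.57 ± 0.38, −0.68 ± 0.29 and −0.50 ± 0.23, and Keap1, which holds Nrf2 inactive, had one at 1.29 ± 0.33. None of these passed (adjusted p = 0.0623, 0.276, 0.313 and 0.0766). Nr1i2 and Nr1i3, the nuclear receptors PXR and CAR, stood at 0.28 ± 0.27 and 0.25 ± 0.29 (adjusted p = 0.768 and 0.840).

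Of the 16 features of hepatocyte and hepatoblast markers 5 passed as lower (31.2%, against 4.58% of all features) and 0 as higher. The median of the 16 was −1.02, with estimates from −5.71 to 0.80. The lower features were those of Hnf4a (2 of 3), Trf, Alb and Apob (1 of 5, limma adjusted p = 0.0494). Those of Hnf4a are the same features as among the regulators above. Dlk1 (0.80 and 0.03), Afp (0.32), Ttr (−0.34), Fgb (−0.70) and Apoa1 (−1.04) had no feature that passed. Of cholangiocyte markers 1 of 10 features fell, of fibroblast and stellate cell markers 1 of 19 fell and 1 rose, and of macrophage and endothelial markers 0 of 9 and 0 of 11 passed in limma. The part of these markers in the transferase result was not tested.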

How the data were processed

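The deposited table held 1 score per feature and array. Per the labels, RNA came from a column kit, or from Trizol in replicate 4, and was DNase-treated, then amplified by PCR before labelling. How the authors made the scores (scanner, background, normalization, log base, scaling) is not given in the sources used here. Each column had an SD of 1, with medians from −0.02 to 0.06. A value was present for 41230 of 44290 features in every column. The 3 swapped columns (Prox1 in Cy3) were identical and counted once. Signal over background was not analysed here. The orientations correlated positively over features (r = 0.397 to 0.444), so both were already turned the same way.

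Symbols came from the platform annotation, updated by gene identifier. Features were kept single. Scores were fitted in limma 3.58.1 (R 4.3.3) as a mean over the 4 profiles, with the orientation as a random block (consensus correlation 0.796), empirical Bayes moderation and Benjamini-Hochberg adjustment over all 41230 features (threshold 0.05). A model with a dye term takes its spread from the 3 forward arrays (Prox1 in Cy5) and was an alternative, also used to test the difference between orientations. The procedure was run on simulated data with known effects. Only the estimates were required to lie near those effects, so this check does not bear on the p-values. The 10 genes, the pathway and marker lists and the design were chosen with earlier results of these data known. Named were all features of the 10 genes, up to 6 passing features per pathway list by p, fixed regulators, the Prox1 features and the 5 genes most like Gsta2. Other transferases of the clusters, Gsto1, Gsto2, Gstk1, Gstcd, Alox5ap, Ptges, Ltc4s, Gclc, Slc7a11 and the marker genes were named after their values were seen.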

Additional observations from a re-analysis of the deposited data

Results flagged for a closer look

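In 8 of the 14 transferase features the score with Prox1 in Cy5 (mean of 3 arrays) differed from the score with Prox1 in Cy3, by limma's test of that difference. The difference was 1.59 SD units for Gsta1, 1.10 for Gsta4, 0.92 for the higher Gstm1 feature, 1.27 for Gstm2, 1.495 for Gstm3, 1.38 for one Gstp1 feature, −1.98 for the other Gstp1 feature and −1.86 for Gstt1. Of all features 40.7% passed the same test. For Gsta1, Gsta4, Gstm1, Gstm3 and Gstt1 both orientations were negative, so that the difference is one of size, while for the Gstp1 features the sign changed as well and for Gstm2 the arrays with Prox1 in Cy5 lay on both sides of 0. The profile with Prox1 in Cy3 was assumed to vary like the other arrays, since it has no replicate of its own.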

How the results depend on the processing

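Of the 14 transferase features 10 passed, all lower with Prox1. The count was 14 with a dye term (all lower), 11 without dye term or block, 12 on the arrays with Prox1 in Cy5 only, 10 with centred columns and 7 of 10 genes with features averaged per gene. It was 0 with the orientations as 2 replicates, where the estimates of all 14 stayed negative. Without replicate 1, 2 or 3 in turn it was 8 each time, with the correlation of the full data because 3 profiles do not allow its estimate. The first Gstp1 feature changed sign on the arrays with Prox1 in Cy5 only (0.0376, adjusted p = 0.71), where the second Gstp1 feature (−1.47) and Gstt1 (−2.38) passed. Over all features 3160 passed. This count was 18604 with a dye term, 9524 without dye term or block, 0 with the orientations as 2 replicates (5498 at an unadjusted p under 0.05), 23983 on the arrays with Prox1 in Cy5 only, and from 1455 to 1624 without 1 replicate. The orientation difference passed in 8 features with and without centring. Each score already compares both RNAs within 1 array. No pairing of arrays between the orientations was possible because they share no replicate numbers. The number of arrays and the unknown signal over background limit the precision.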
